A study of Mus musculus with 6 samples.

Results

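Ctla4 and 9 other receptors and ligands that restrain or tune lymphocytes were followed in mouse leukaemia cells after deletion of Sox4 was induced. The 10 genes, out of 19938 genes with a probe set of their own on the array, were Ctla4, Cd28, Icos, Cd5, Cd72, Btla, Pdcd1, Cd274, Lag3 and Cd200. They were chosen by name around the rise of Ctla4 in these arrays, to see whether its neighbours and other inhibitory receptors moved with it, so their differences, and whether each passed the threshold used across the array, are given as a description, with no p-value. Each of the 10 genes was measured by 1 probe set. The cells were pre-B cells of 129SvEv x C57BL/6J mice aged 5 weeks, transformed with BCR-ABL1, the kinase fusion of Philadelphia chromosome-positive acute lymphoblastic leukaemia, and carried the Sox4fl/fl alleles in every sample. The 3 control samples carried a transduced ERT2 construct, the oestrogen receptor's hormone-binding domain by itself, and the other 3 carried Cre-ERT2, a recombinase that 4OHT (4-hydroxytamoxifen) switches on. RNA was taken 24 h after induction with 4OHT. With no sample of Cre-ERT2 in unfloxed cells and no label of a sample without 4OHT, effects of Sox4 loss and of Cre itself cannot be told apart. Whether the 3 samples of a group are separate cultures is not in the labels, and errors and p-values therefore cover only the spread among these samples, possibly technical.

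CTLA-4, CD28 and ICOS are related receptors of the immunoglobulin superfamily, encoded side by side on mouse chromosome 1. CD28 and ICOS support the activation of T cells, while CTLA-4 competes with CD28 for the ligands CD80 and CD86 and restrains it. PD-1 (Pdcd1), BTLA, LAG-3, CD5 and CD72 also dampen signals of antigen receptors, several of them through tyrosine motifs that recruit phosphatases. In B cells CD5, CD72 and BTLA are the best known of these, whereas CTLA-4, CD28, ICOS, PD-1 and LAG-3 are known mainly from T cells.

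Among the 10 genes, Ctla4, Cd5 and Btla rose and Cd72 fell past the threshold used across the array. The stretches of 250 bases before the start of each of these 4 genes are shown because they are where the changing members could share sequence features. They come from RefSeq on build GRCm38.p6 and run 5′ to 3′ on the strand of the gene: Ctla4 at chr1:60908775-60909024 on the plus strand, Btla at chr16:45224087-45224336 on the plus strand, Cd5 at chr19:10738975-10739224 on the minus strand and Cd72 at chr4:43454627-43454876 on the minus strand. Capitals mark matches to any of 4 motifs searched on both strands.
Ctla4: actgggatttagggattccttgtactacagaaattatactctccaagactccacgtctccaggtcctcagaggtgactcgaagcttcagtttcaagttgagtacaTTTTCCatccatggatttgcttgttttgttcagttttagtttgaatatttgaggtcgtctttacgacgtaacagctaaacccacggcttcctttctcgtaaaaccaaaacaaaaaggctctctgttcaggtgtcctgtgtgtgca
Btla: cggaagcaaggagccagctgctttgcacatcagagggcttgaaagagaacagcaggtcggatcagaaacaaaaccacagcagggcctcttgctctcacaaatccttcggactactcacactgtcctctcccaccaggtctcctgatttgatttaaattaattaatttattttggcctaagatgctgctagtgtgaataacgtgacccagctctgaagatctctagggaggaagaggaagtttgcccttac
Cd5: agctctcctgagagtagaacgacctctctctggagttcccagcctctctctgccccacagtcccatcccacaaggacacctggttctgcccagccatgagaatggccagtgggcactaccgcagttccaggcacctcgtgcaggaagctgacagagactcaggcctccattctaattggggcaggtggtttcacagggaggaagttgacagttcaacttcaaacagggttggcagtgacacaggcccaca
Cd72: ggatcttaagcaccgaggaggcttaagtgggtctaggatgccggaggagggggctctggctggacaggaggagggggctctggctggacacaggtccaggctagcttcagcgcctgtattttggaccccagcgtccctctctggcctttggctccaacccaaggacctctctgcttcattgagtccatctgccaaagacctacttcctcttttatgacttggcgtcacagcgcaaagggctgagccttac
The motifs were the Sox letters ACAAAG, which overlap the Tcf/Lef motif, the Sox letters ACAATG, the NFAT core GGAAAA and the STAT letters TTCNNNGAA, which can overlap GGAAAA. Only the Ctla4 window held a match, TTTTCC, which is GGAAAA on the opposite strand, 145 to 140 bases before the start. Of all 32851 windows of that length in the table, 20.4% held GGAAAA, 16.5% ACAAAG, 10.7% ACAATG and 7.02% TTCNNNGAA. A match is a description of letters, and no match says only that they are not in this window. Windows for 7 of the 10 genes were in the table, and the 3 further ones, of Pdcd1, Cd274 and Cd200, held none of the 4 motifs.

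The 6 arrays had median intensities from 273 to 279, and their number limits the precision. Sox4 served as the check of the labels. It fell to 40.3% of the control level (log2 difference -1.31, SE 0.0912, limma adjusted p = 0.000434), with no overlap between the groups. The position of its probes against the deleted stretch is not known here. All 9 pre-B markers measured (among them Cd79a, Cd79b, Pax5, Ebf1 and Igll1) were brighter than the median probe set. Of these markers 0 passed the threshold, beside 8.1% of all genes (limma, 0 higher and 1 lower at an unadjusted p under 0.05). Their summed intensity was 90208 to 91465 in the controls and 87573 to 89183 in Cre-ERT2 cells, without overlap. Pax5, a transcription factor of B-lineage identity, came nearest to the threshold, with a difference of -0.22 (SE 0.0488, limma adjusted p = 0.0552). The part of the pre-B markers in the results was not tested.

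Ctla4 stood apart from the other members in the size of its rise. On the ERT2 arrays its probe set (10346790) read intensities of 596, 701 and 535, and on the Cre-ERT2 arrays 2155, 2142 and 2167. The Cre-ERT2 arrays lay close together and far above the controls, with a gap of 1441 between the highest control and the lowest Cre-ERT2 array. Mean intensity went from 611 ± 84.1 (SD, n = 3) to 2155 ± 12.5 (SD, n = 3). On the scale of log2(intensity + 1) the difference was 1.83 (SE 0.0984), a 3.55-fold higher level, and 14 of the 19938 genes had a larger rise. In bulk RNA, a larger share of cells carrying a transcript and more transcript per cell cannot be told apart.

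Cd28 and Icos, which flank Ctla4 on the chromosome and share its family, stayed near their control levels. Cd28, the activating partner that binds the same ligands, read 105, 109 and 104 in the controls and 117, 118 and 115 in the Cre-ERT2 arrays. Its groups did not overlap, though they were only 5.14 intensity units apart, and the log2 difference of 0.13 (SE 0.0457) did not pass the threshold. Icos, the inducible costimulator of follicular helper T cells, read 140.0, 166 and 153 in the controls and 185, 159 and 157 in the Cre-ERT2 arrays. Its groups overlapped, and its difference of 0.13 (SE 0.0901) did not pass. Both probe sets were dim: Cd28 lay at the 23.5th and Icos at the 33.6th percentile of mean intensity over all probe sets, against the 77.7th for Ctla4. The files hold no detection calls, so whether these dim probe sets were above background was not tested.

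**Figure D1:**
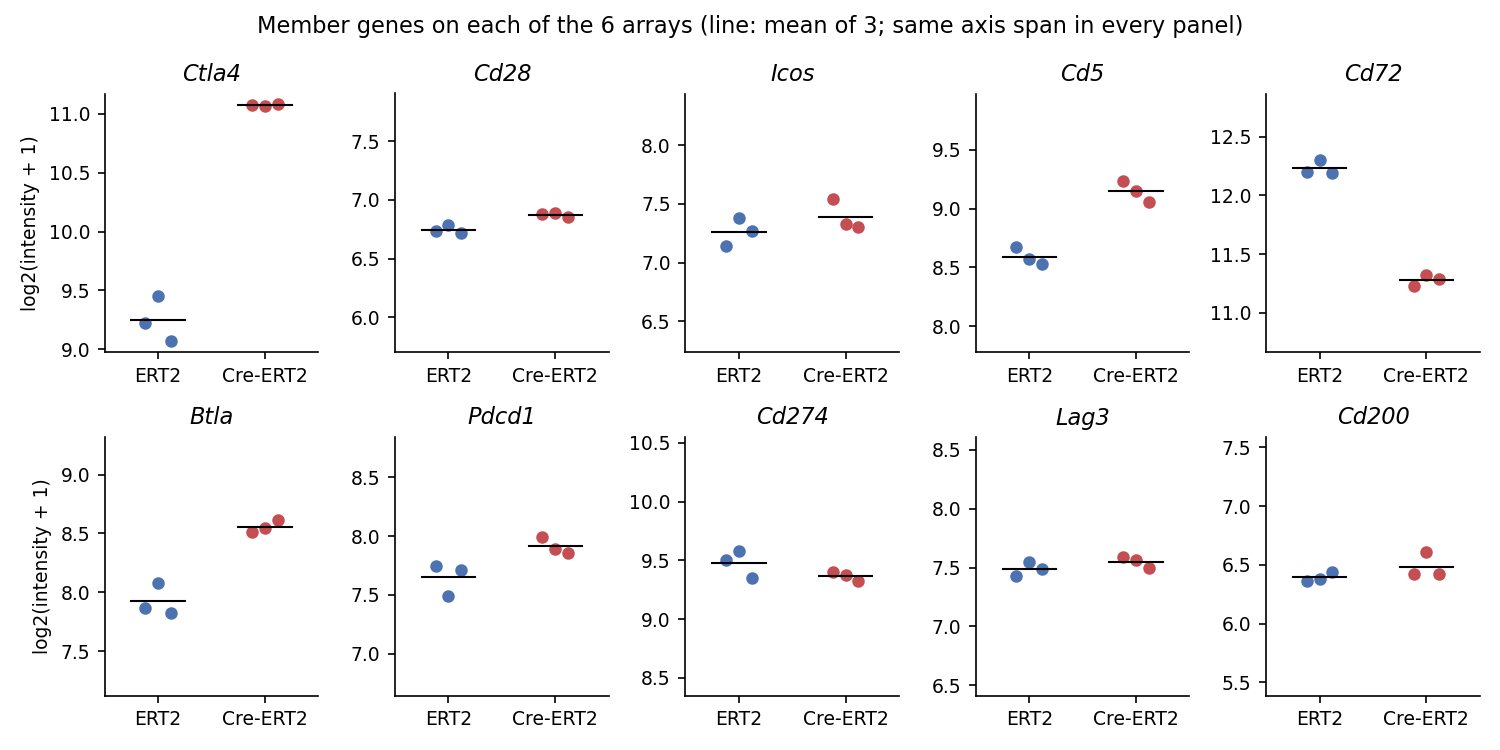
Each panel plots log2(intensity + 1) of a member gene on the 3 ERT2 arrays (blue) and the 3 Cre-ERT2 arrays (red), with the mean of each group as a line and the same axis span in all panels. Ctla4 shows the widest separation, Btla and Cd5 are higher and Cd72 lower in Cre-ERT2 cells, and the groups of the other members lie close together or overlap.

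The receptors best known from B cells moved in both directions. Btla, the attenuator that binds the TNF-family receptor HVEM, read 232, 269 and 226 in the controls and 364, 373 and 391 in the Cre-ERT2 arrays. All Cre-ERT2 arrays lay above all controls, and Btla rose by 0.64 (SE 0.0779), which is 1.55-fold. Cd5, a scavenger receptor-type glycoprotein that dampens antigen receptor signals in T cells and B-1 cells, read 407, 380 and 367 in the controls and 600.3, 568 and 530.3 in the Cre-ERT2 arrays. It too was higher on every Cre-ERT2 array, and rose by 0.56 (SE 0.0676), which is 1.47-fold. Cd72, a C-type lectin-like co-receptor that recruits the phosphatase SHP-1 in B cells, moved the other way. Its intensities were 4703, 5054 and 4663 in the controls and 2399, 2557 and 2506 in the Cre-ERT2 arrays. Every Cre-ERT2 array was below every control by at least 2105 intensity units, and Cd72 fell to 51.8% of its control level (log2 difference -0.95, SE 0.0552). Cd72 had the largest fall of the 10, and 177 genes of the array had a larger one.

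The genes of the PD-1 axis, Lag3 and Cd200 did not pass the threshold. Pdcd1, the receptor PD-1, read 214, 179 and 209 in the controls and 254, 237 and 230.0 in the Cre-ERT2 arrays. Its groups lay next to each other without overlap, and its difference was 0.26 (SE 0.0825). Cd274, which encodes the ligand PD-L1, read 726, 763 and 652 in the controls and 674, 664 and 639 in the Cre-ERT2 arrays, so its groups overlapped around a difference of -0.11 (SE 0.0694). Lag3, a receptor that binds MHC class II, read 172, 186 and 178 in the controls against 192, 188 and 180 in the Cre-ERT2 arrays, with overlapping groups and a difference of 0.06 (SE 0.0541). Cd200, a ligand that quiets myeloid cells through its receptor, read 81.5, 82.4 and 85.9 in the controls. Its Cre-ERT2 arrays read 84.6, 96.6 and 84.7, of which only the array of replicate 2 lay above all controls, and the difference was 0.09 (SE 0.0668).

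Counted together, 3 of the 10 members were called higher, where 4.38% of all genes were, and 1 was called lower, where 3.72% of all genes were (limma adjusted p under 0.05). In either direction these were 4 of 10, beside 8.1% of all genes. Since this contrast was known when the members were chosen, nothing is read from these shares. The groups did not overlap in 5 members that were higher, against 17.5% of all genes, and in 1 that was lower, against 10.8%. The median difference of the members was 0.13, beside 0.02 over all genes, and 0.13 without Ctla4. The 6 members that were not called spanned differences from -0.11 to 0.26. After that of Ctla4, at 1.83, the largest rise among the members was that of Btla, at 0.64. Under all 14 array and processing settings the called members were the same: Ctla4 ranged from 1.74 to 1.93 with single arrays left out, Btla from 0.59 to 0.71, Cd5 from 0.51 to 0.60 and Cd72 from -0.97 to -0.91. Of these settings, averaging a gene's probe sets could not change a member's difference, as each had 1 probe set. Among the brighter probe sets alone, only 5 members could be tested.

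**Figure D2:**
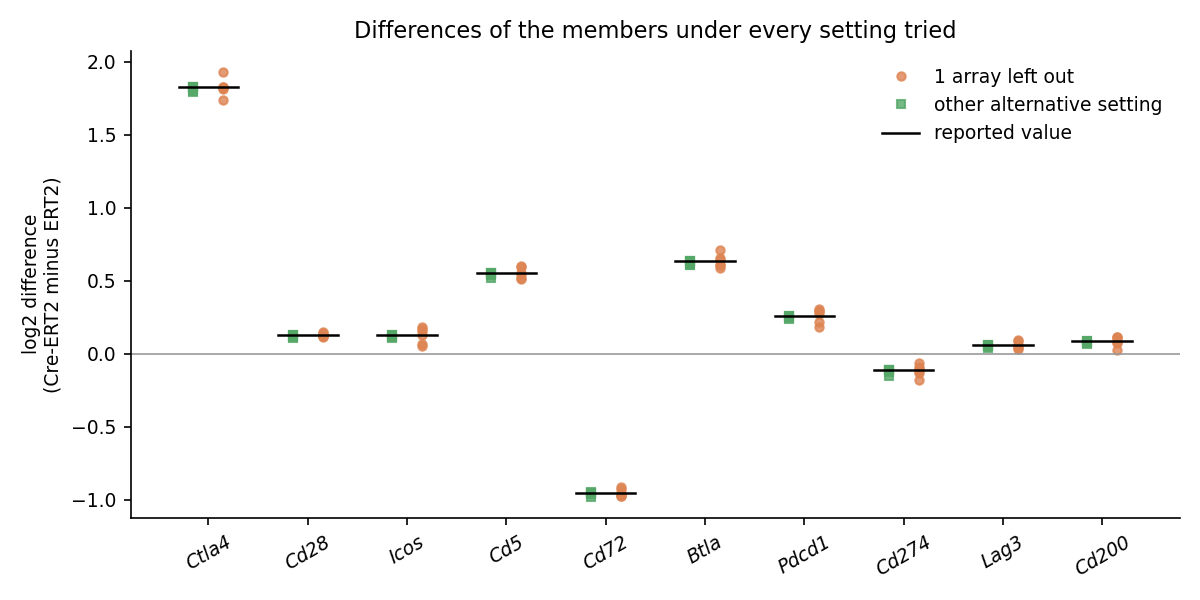
The log2 difference (Cre-ERT2 minus ERT2) of each member is shown as reported (black line), with 1 array left out at a time (orange circles) and under the other alternative settings (green squares). No member changes sign, and Ctla4 stays between 1.74 and 1.93.

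The chromosomal surroundings of Ctla4 were examined next, over the 5 nearest protein-coding genes with a probe set on each side of the Cd28, Ctla4 and Icos block. Only the position of these genes was used to choose them. Raph1, a Ras-binding regulator of actin that lies next to Cd28, was the 1 of 10 that was called (0 were lower, also at an unadjusted p under 0.05). This count is near the share of all genes called in either direction, 8.1%. Raph1 read 166, 193 and 176 in the controls and 261, 259 and 268 in the Cre-ERT2 arrays, with no overlap. Of all genes, 17.5% were higher without overlap. Raph1 rose by 0.56 (SE 0.0662, limma adjusted p = 0.00433), less than Ctla4. The other 9 neighbours, Carf, Nbeal1, Cyp20a1, Abi2, Pard3b, Nrp2, Ino80d, Ndufs1 and Eef1b2, had overlapping groups and differences from -0.26 to 0.10. Between Raph1 and Ctla4 lies Cd28, with its difference of 0.13. Gene order is that of the RefSeq gene table for GRCm38.p6, and genes without a probe set of their own were passed over.

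**Figure D3:**
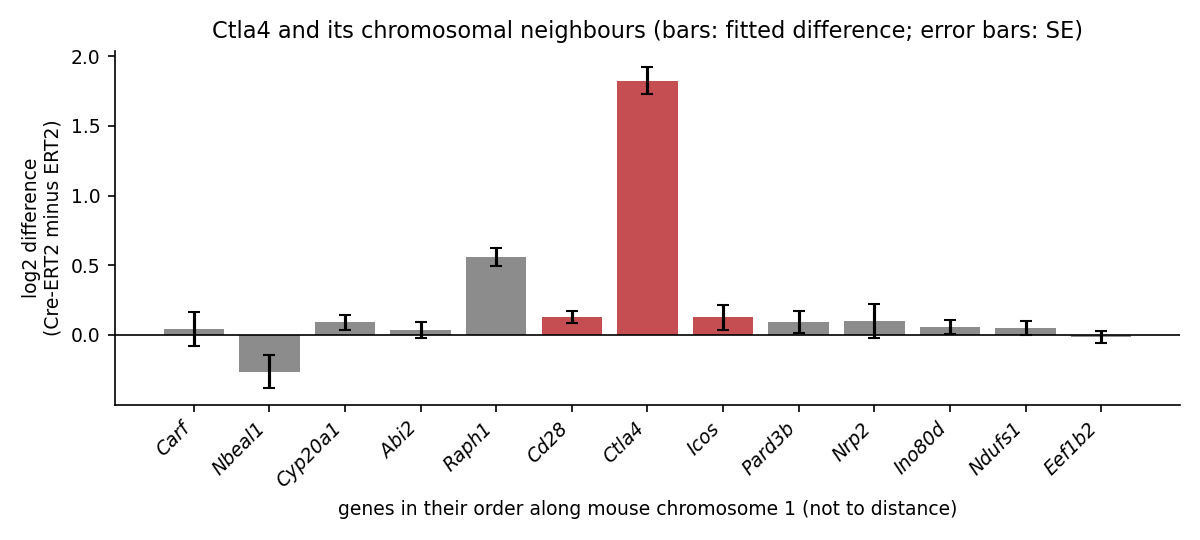
Bars give the log2 difference (Cre-ERT2 minus ERT2) with its SE for 13 genes in their order along mouse chromosome 1, with the Cd28, Ctla4 and Icos block in red. Ctla4 (1.83) and Raph1 (0.56) were called, while Cd28 and Icos, on either side of Ctla4, differ by 0.13 each.

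The nearest genes of the other members were mostly level. Btla and Cd200 are themselves neighbours in this gene order, and Btla rose while Cd200 had its difference of 0.09. Sit1, which encodes an inhibitory transmembrane adaptor of lymphocytes and lies next to Cd72, read 2877, 2819 and 2616 in the controls and 3623, 3594 and 3425 in the Cre-ERT2 arrays. Sit1 rose by 0.36 (SE 0.0568, limma adjusted p = 0.015), opposite to the fall of Cd72, but was no longer called when any Cre-ERT2 array was omitted (adjusted p from 0.0501 to 0.0724). Cd6, the relative of Cd5 that lies beside it, had a difference of 0.06 (SE 0.0716). Pdcd1lg2, which encodes the second PD-1 ligand and lies beside Cd274, had a difference of 0.27 (SE 0.0678, limma adjusted p = 0.0847), and Cd4, beside Lag3, had 0.08 (SE 0.0696). None of the remaining nearest genes (Vps37c, Tesk1, Atg3, Neu4, Fam174a, Plgrkt, Ptms and Gm609) was called.

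Of the members' ligands and partners, 14 were measured. Among them 1 was called higher, beside 4.38% of all genes, and 0 lower, beside 3.72% (limma; 3 and 1 at an unadjusted p under 0.05). Their differences lay on both sides of 0, with a median of 0.02 and a median size of 0.14, beside 0.0682 over all genes. The groups did not overlap in 5 of the 14, of which 4 were higher, beside 17.5% of all genes, and 1 was lower, beside 10.8%. The called gene was Sema4d, a semaphorin that binds CD72, which rose by 0.36 (SE 0.0664, limma adjusted p = 0.0286). Its second probe set had a difference of 0.04 (SE 0.0586), and it was no longer called when any array but ERT2 replicate 2 was omitted (adjusted p from 0.0535 to 0.116). Cd80 and Cd86, the ligands that CTLA-4 and CD28 share, had differences of 0.13 (SE 0.0773) and -0.37 (SE 0.0959, limma adjusted p = 0.0902). Cd86 read 118, 131 and 119 in the controls and 98.6, 104 and 82.9 in the Cre-ERT2 arrays, so its groups did not overlap although it missed the threshold. Icosl, the ligand of ICOS, had a difference of -0.15 (SE 0.0648), and Tnfrsf14, which encodes the BTLA ligand HVEM, had 0.16 (SE 0.0581).

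Other inhibitory receptors of B cells moved in both directions. Of 10 measured, 3 were called higher and 2 lower, beside 4.38% and 3.72% of all genes. The median difference was 0.18, beside 0.02 over all genes. The list was chosen with earlier results of these data known, so nothing is read from these shares. Siglecg, a sialic acid-binding lectin that restrains antigen receptor signals in B-1 cells, fell most, to 20.2% of its control level (log2 difference -2.31, SE 0.105, limma adjusted p = 9.67e-05). Its arrays read 2015, 2204 and 1894 in the controls and 423, 358 and 458 in Cre-ERT2 cells, far apart and without overlap. Cd22, its relative in the Siglec family, fell by 0.41 on the log2 scale (SE 0.0532, limma adjusted p = 0.00628). Fcgr2b, the inhibitory Fc receptor, went the other way. It read 3355, 3029 and 3159 in the controls and 5082, 4965 and 5061 in the Cre-ERT2 arrays, and rose by 0.66 (SE 0.0543, limma adjusted p = 0.000875). Lilrb4a, an immunoglobulin-like inhibitory receptor, rose by 0.54 (SE 0.0706, limma adjusted p = 0.00651) from a dim control level of 93.0 ± 7.99 (SD, n = 3). Pecam1, an adhesion receptor with inhibitory motifs and the remaining called gene, rose by 0.33 and was no longer called when ERT2 replicate 1, or a Cre-ERT2 array, was omitted (limma adjusted p from 0.0516 to 0.0801).

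Inhibitory receptors of T and NK cells outside the members were not called. Of 10 measured, 0 were called higher and 0 lower, beside 4.38% and 3.72% of all genes (limma; 2 and 2 at an unadjusted p under 0.05). Their differences ran from -0.28 to 0.20. Of the 10, only 4 were brighter than the median probe set. Klrc1, Klrd1, Havcr2, Cd96 and Klrg1 were dim, at percentiles from 6.63 to 14.7 of mean intensity over all probe sets. Whether these dim probe sets were above background was not tested. A missing call there does not show a receptor that was expressed and unchanged. Tigit, a receptor for nectin-like ligands, had a difference of 0.03 (SE 0.0863), and Havcr2, which encodes TIM-3, had -0.06 (SE 0.0449). Vsir, which encodes the V-domain suppressor VISTA, was lower on every Cre-ERT2 array, with a difference of -0.28 (SE 0.076, limma adjusted p = 0.103). In this list 2 genes were higher and 3 lower without overlap, Vsir among them, beside 17.5% and 10.8% of all genes. Pvrig was not analysed here.

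**Figure D4:**
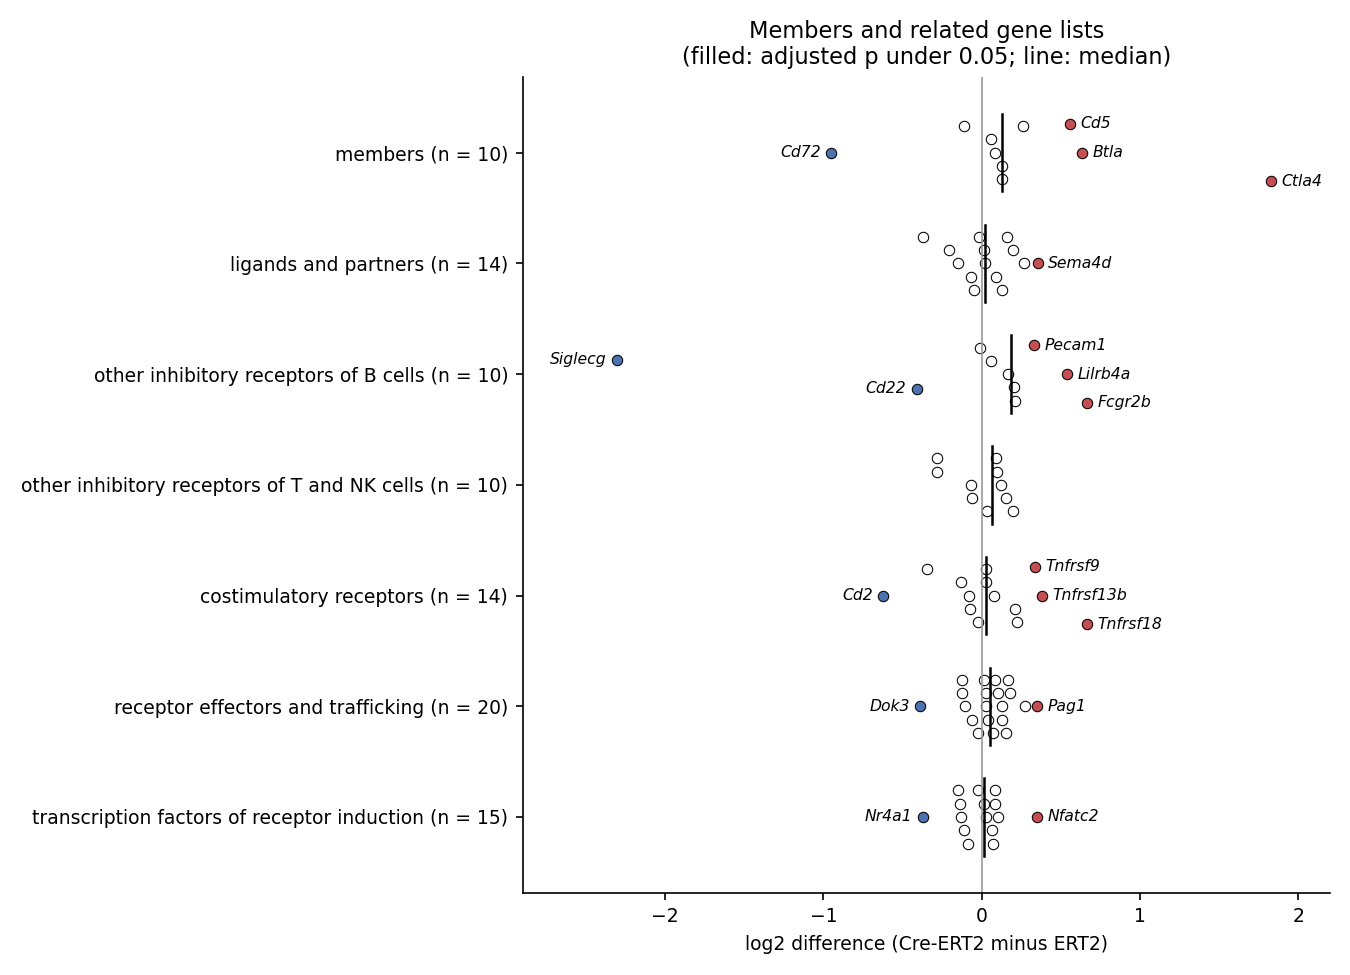
Each point is the log2 difference (Cre-ERT2 minus ERT2) of a gene, by list, filled where the adjusted p was under 0.05, with the median of the list as a line. Siglecg (-2.31) and Ctla4 (1.83) lie farthest from 0, and none of the 10 other inhibitory receptors of T and NK cells is filled.

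Costimulatory receptors had 3 of 14 called higher and 1 lower, beside 4.38% and 3.72% of all genes, with a median of 0.03. This list too was chosen with earlier results of these data known, so nothing is read from its shares. Tnfrsf18, which encodes GITR, read 795, 734 and 677 in the controls and 1177, 1138 and 1172 in the Cre-ERT2 arrays. Tnfrsf18 rose by 0.66 (SE 0.0681, limma adjusted p = 0.00228). Tnfrsf13b, which encodes the BAFF-family receptor TACI, rose by 0.38 (SE 0.0542, limma adjusted p = 0.00944). Cd2, a lymphocyte adhesion receptor, fell by 0.62 (SE 0.0473, limma adjusted p = 0.000634). Tnfrsf9, which encodes 4-1BB, rose by 0.34 (SE 0.0701, limma adjusted p = 0.0432) and was no longer called when any array but ERT2 replicate 2 was omitted (0.0639 to 0.167).

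Effectors and trafficking factors of these receptors had 1 of 20 called higher and 1 lower, with a median of 0.06. These counts are near the shares of all genes, 4.38% higher and 3.72% lower. Ptpn6, which encodes the phosphatase SHP-1 that CD72 and CD5 engage, had a difference of 0.15 (SE 0.0469, limma adjusted p = 0.153), and Ptpn11, which encodes SHP-2, had 0.03 (SE 0.0489). Pag1, an adaptor that binds the kinase CSK, rose by 0.35 (SE 0.0657, limma adjusted p = 0.0293), but was no longer called when any array but ERT2 replicate 2 was omitted (0.0698 to 0.114). Dok3, an adaptor that restrains B cell receptor signals, fell by 0.39 (SE 0.0644, limma adjusted p = 0.0179), and was no longer called when ERT2 replicate 1, or a Cre-ERT2 array, was omitted (0.0607 to 0.0806). Lck and Lyn were not analysed here.

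Transcription factors known for inducing such receptors had 1 of 15 called higher and 1 lower, with a median of 0.01. These counts are near the shares of all genes, 4.38% higher and 3.72% lower. Nfatc2, a factor activated by calcium signals, rose by 0.35 (SE 0.0595, limma adjusted p = 0.0202), and was no longer called when replicate 1 or 3 of either group was omitted (0.06 to 0.0978). Nr4a1, an orphan nuclear receptor induced by antigen receptor signals, fell by 0.37 (SE 0.0471, limma adjusted p = 0.00571). Foxp3, the factor of regulatory T cells, which carry much CTLA-4, had a difference of -0.025. Tcf7 was not analysed here.

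Ctla4, Cd28, Icos, Pdcd1 and Lag3 are T-cell genes in most settings, so markers of T cells are given beside them. Of 13 measured, Lat was called higher (0.47, SE 0.0536, limma adjusted p = 0.00369) and Ubash3a lower (-0.70, SE 0.0467, limma adjusted p = 0.000368). Over all genes, 4.38% were called higher and 3.72% lower. Lat is an adaptor that pre-B cells also carry. The summed intensity of the list lay between 2840 and 3000 in the controls and between 2936 and 3117 in Cre-ERT2 cells, so the groups overlapped. The antigen receptor chains Cd3d, Cd3e, Cd3g and Cd247 had differences from -0.21 (Cd3g) to -0.004 (Cd3e), and 12 of the 13 markers were dimmer than the median probe set. None was listed at 0, as RMA gives every probe set a positive value. NK-cell markers had 0 of 9 called (limma, also 0 at an unadjusted p under 0.05), with sums from 817 to 846 in the controls and from 813 to 864 in Cre-ERT2 cells. Of 10 myeloid markers Lyz2, which encodes lysozyme, rose by 1.40 (SE 0.108, limma adjusted p = 0.000654), and Itgam, an integrin subunit, fell by 0.50 (SE 0.076, limma adjusted p = 0.0129). Itgam was no longer called when ERT2 replicate 1 or Cre-ERT2 replicate 2 was omitted (0.0558 to 0.0574). The other 8 were not called, and the sum of the list was 1533 to 1604 in the controls and 1994 to 2194 in Cre-ERT2 cells, without overlap. That gap came from Lyz2, since the other 9 summed to 1220 to 1238 in the controls and 1163 to 1212 in Cre-ERT2 cells. The part of the myeloid markers in the results was not tested.

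By the Euclidean distance between 6 log2 values, each gene centred on its own mean but not scaled, Ctla4 was nearest to Clic6, a chloride channel protein, at 0.112. This distance depends on the size of the difference between the groups as well as on the order of the arrays. Slc9a2, a sodium-proton exchanger, followed at 0.166, then the glycosyltransferases St6galnac5 at 0.197 and Galnt14 at 0.207, and the peroxisomal gene Pex2 at 0.295. Clic6 read 656, 722 and 589 in the controls and 2186, 2231 and 2253 in the Cre-ERT2 arrays. Its controls had the same order as those of Ctla4, as had those of the other genes named here. Choosing genes by this distance favours such a shared order. The differences of the 5 genes ran from 1.67 to 1.94, around the 1.83 of Ctla4, which follows from choosing them by this distance. Among the members the nearest to Ctla4 was Btla, at a distance of 1.46 and rank 240 of 19937 genes, followed by Cd5 at 1.59 and rank 314. Cd28 ranked 2977, Icos 3188 and Cd72 19759.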

How the data were processed

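Biotin-labelled total RNA of 6 samples was measured on 1 Affymetrix array each, per the labels' protocols. The deposited table gives 1 linear intensity per probe set and array, made by the authors with RMA, per the submitters' processing notes. Its version and annotation were not given in the sources used here. As a method, RMA gives log2 values after quantile normalization, which would hide a shift common to all genes, whereas the deposited intensities are linear by their range.

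All 35556 probe sets were fitted on log2(intensity + 1) with limma 3.58.1 in R 4.3.3 (two-sided, no covariate), with Benjamini-Hochberg adjustment over all of them and a threshold of 0.05. The platform annotation names 1 gene for 21789 probe sets, more than 1 for 1621 and no gene for 12146, and 21698 of the single-gene ones matched the RefSeq gene table of GRCm38.p6. Each of 19938 genes was represented by its brightest probe set. Errors of differences are moderated standard errors. The test was tried on simulated data for Cre-ERT2 against ERT2 over 35556 probe sets: it recovered 2% of log2 changes of size 0.25, 56% of size 0.5 and 92% of size 1. Far fewer probe sets were changed there than the 1143 called higher and 1009 called lower in the data. Benjamini-Hochberg adjustment is stricter when fewer probe sets change, so these rates are not taken as those of the data.

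The members and lists were chosen with earlier results of these data known. Genes named are the members, Sox4, positional neighbours, up to 4 called genes of each list by smallest p and the 5 genes closest to Ctla4 in Euclidean distance; Pecam1, genes that missed the threshold and marker genes were named after their values were seen. The alternatives were the variance trend, a pseudocount of 16, the probe sets brighter than the median, cyclic loess, median centring and averaging the probe sets of each gene. A replicate block and the omission of each array were also run.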

Additional observations from a re-analysis of the deposited data

How the results depend on the processing

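Ctla4, Btla and Cd5 were called higher and Cd72 lower under each of the 13 alternatives, the other 6 members were not called under any in which they were tested, and no member changed sign. Averaging probe sets could not change the members' differences, as each had 1 probe set. Sox4 lay between -1.38 and -1.25 with single arrays left out, and Ctla4 between 1.74 and 1.93. With single arrays left out the number of called genes ranged from 0 to 1 for higher ligands and partners, from 2 to 3 for higher inhibitory receptors of B cells, from 2 to 3 for higher costimulatory receptors, from 0 to 1 for higher and for lower receptor effectors, and from 0 to 1 for higher transcription factors. Among probe sets brighter than the median alone, 5 members could be tested. There higher calls were 0 among the chromosomal neighbours and 0 among the transcription factors, as Raph1 and Nfatc2 were too dim to be tested, while 5 costimulatory receptors and 3 receptor effectors were higher. With an intensity trend 2 receptor effectors were higher, and with averaged probe sets per gene 0 ligands were higher. Of same-numbered samples, the deviations from the group means correlated at 0.205, 0.344 and -0.0491. In the same deviations ERT2 replicates 1 and 2 each correlated best with the Cre-ERT2 sample of the same number. ERT2 replicate 3 correlated best with Cre-ERT2 replicate 1, at 0.325. These values do not settle whether the numbers mark pairs, so the main fit used no pairs and a block was run as an alternative. With the replicate number as a block (replicate block), 959 probe sets were higher and 877 lower, against 1143 and 1009 without it. Under the block 0 receptor effectors were lower (1 without it), as Dok3 had a limma adjusted p of 0.0645. There 2 costimulatory receptors were higher (3 without it), as Tnfrsf9 had 0.103. The cause of these changes was not tested where no reason is given. Dim probe sets, among them Cd28 and Cd200, limit what can be seen, since no detection calls are given.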
